A study of Gallus gallus with 18 samples.

Results

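Sperm and liver of adult roosters fed excess folic acid were compared gene by gene. The birds were Arbor Acres breeder roosters kept from hatch on a corn and soybean feed with 5 mg folic acid per kg, a diet the labels abbreviate as FE. Both groups carry that diet, so the comparison itself holds no diet contrast. Each tissue has 3 polyA RNA-seq libraries, taken at 35 weeks of age except sperm replicate 3, which is labelled 36 weeks. Genes with an FPKM (fragments scaled to transcript length and sequencing depth) of at least 1 in at least 3 of these 6 libraries were kept, which left 9374 of the 23741 genes in the table. The whole series has 18 libraries in 6 groups, and the same tissues under the control diet, with 0.25 mg folic acid per kg (FCON), serve at the end to show where the FE comparison differs. The labels number the roosters 1 to 3 in both tissues without saying whether a number is 1 bird, and they name no step that freed sperm from other cells.

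A spermatozoon is a stripped-down cell. It carries condensed DNA in the head, an acrosome whose enzymes open the egg coat, and a flagellum built on dynein-driven microtubules, and its nucleus is largely silent, so most of its RNA is left over from the spermatid stage in the testis. The liver parenchyma is the opposite case, a tissue of hepatocytes that export plasma proteins and lipoproteins, make bile acids and, in birds, carry most of the body's fatty acid synthesis and form uric acid from surplus nitrogen. Folate feeds the one-carbon cycle, which the liver runs to make methionine, serine, purines and the methyl donor S-adenosylmethionine.

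The libraries differed in make-up as much as in tissue. Totals ran from 23.8 to 27.5 M estimated counts in sperm and from 17.0 to 22.8 M in liver (M, mega). Nuclear rRNA genes took 5.85%, 50.2% and 2.35% of the counts in sperm libraries 1, 2 and 3, and 60.5%, 44.4% and 32.8% in the liver libraries. The tagged mitochondrial rRNA and tRNA genes took at most 0.47% in sperm and at least 6.3% in liver. Sperm library 2 thus stood with the livers for rRNA. Across genes, logged expression correlated at 0.943 to 0.968 between livers and at 0.862 to 0.923 between sperm libraries. Without sperm library 2 and liver library 1, a choice made after seeing the data, 4602 genes are called below in place of 4954.

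**Figure D1:**
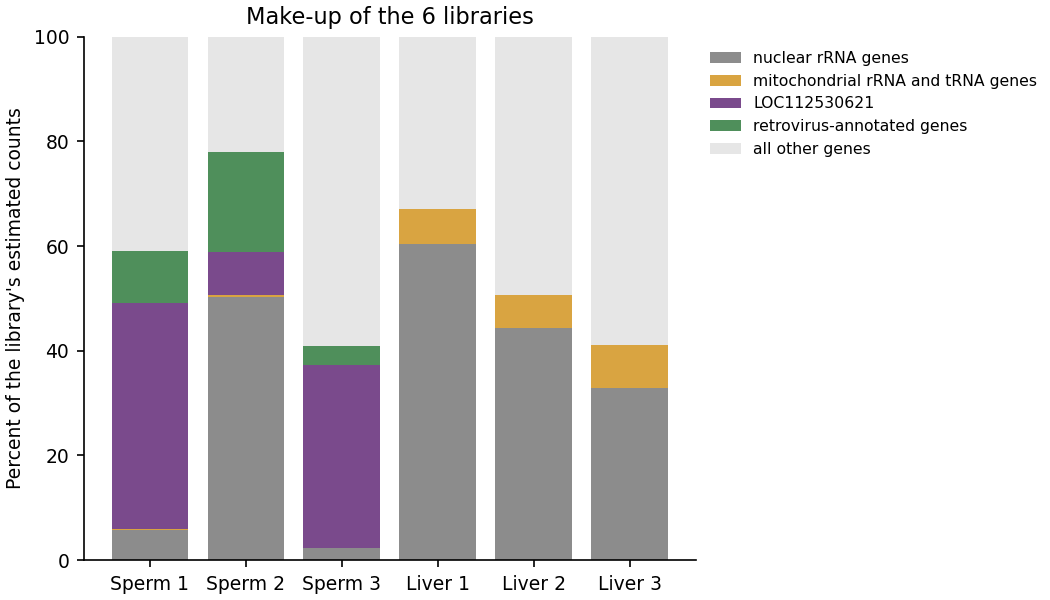
Share of each library's estimated counts (y axis, percent) taken by nuclear rRNA genes, mitochondrial rRNA and tRNA genes, LOC112530621, retrovirus-annotated genes and all other genes, for the 6 libraries on the x axis. Nuclear rRNA takes 2.35% to 50.2% of the sperm libraries and 32.8% to 60.5% of the livers, and LOC112530621 takes 8.12% to 43.2% of sperm only.

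A narrow majority of tested genes differed between the tissues in the main test, and a minority did in some other fits given below. At a Benjamini-Hochberg adjusted p below 0.05 in edgeR's quasi-likelihood test, 4954 of 9374 genes (52.8%) were called, 2804 of them higher in sperm (29.9% of those tested) and 2150 higher in liver (22.9%). At least 16-fold differences were found for 788 genes higher in sperm and 598 higher in liver. The filter lets a gene in on 1 tissue alone: 821 tested genes reached the minimum in all 3 sperm libraries and no liver, and 805 in all 3 livers and no sperm library. Of the 4411 genes that reached it in all 6 libraries, 1466 were higher in sperm and 723 higher in liver. These are the reference for list members below that reached it in all 6 libraries. No counts at all were found in liver for 343 called genes, and in sperm for 89. At the edge of the filter, 33 genes had a third-highest FPKM of exactly 1 and 26 had 0.99.

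The share of calls in each direction depended on the fit. By the quasi-likelihood test 56.6% of the calls were higher in sperm. With the scaling alone changed it was 53.6% (RLE) or 50.8% (upper quartile), and without rRNA and mitochondrial genes 53.1%. It was 43.5% by limma on log2(FPKM + 1), which changes the test, the measure and the scaling at once. The median log2 difference over all tested genes was 0.10 in the main test, -0.09 with upper quartile scaling and -0.24 by limma. Single genes below are given in CPM (counts scaled to library size after TMM), in the order of libraries 1, 2 and 3, and as log2 of sperm over liver. Because reads in bulk tissue are shared out among all RNAs, fewer cells of a type and less RNA per cell cannot be told apart. The labels give each library of a tissue its own rooster number without saying whether a number is 1 bird, so p measures only the spread between these samples.

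**Figure D2:**
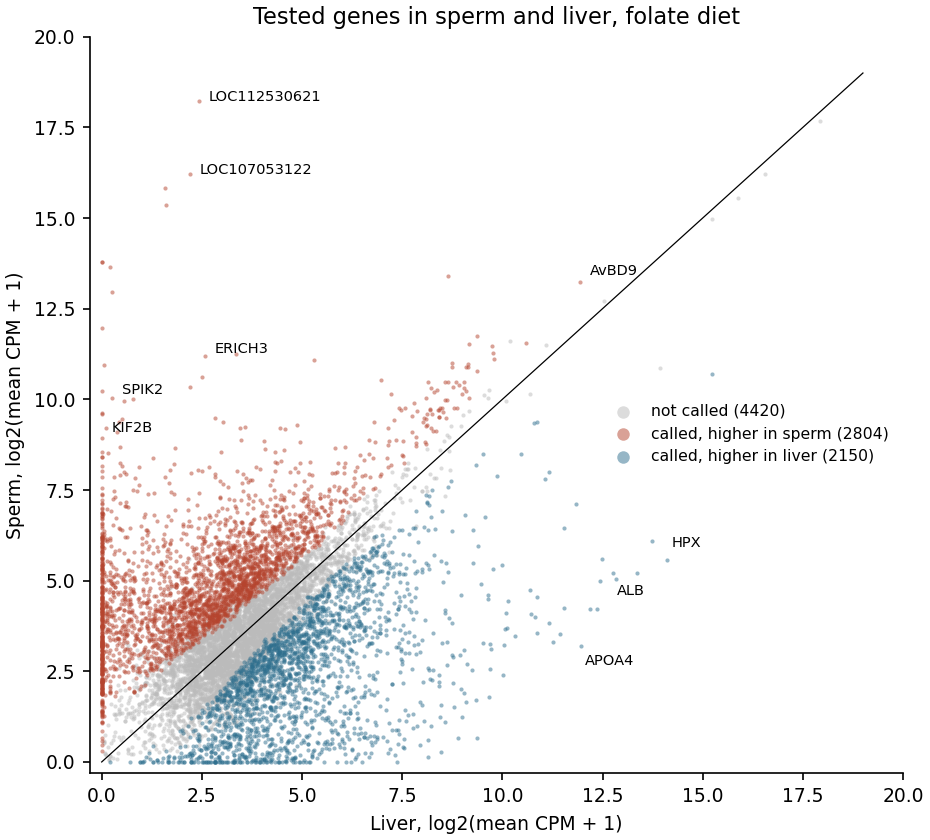
Mean level of each of the 9374 tested genes in liver (x axis) and sperm (y axis), both as log2(mean CPM + 1), coloured by call; the line marks equal levels. The 2804 genes called higher in sperm reach down to the left edge, where liver is at 0, and the 2150 called higher in liver reach the bottom edge.

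Among genes with a symbol other than a LOC number and outside rRNA, histone and W chromosome genes, the 12 furthest above liver in sperm included several that are known from the testis. SPIK2 (gene 770729, chromosome 4, 49290134 to 49295716 in the deposited table, whose build is not given in the sources used here) is SPINK2 in RefSeq, an inhibitor that keeps acrosin in check in mouse and human. It stood at 808, 1068 and 1279 CPM in sperm and at 0.61, 0 and 0 CPM in liver, a log2 difference of 12.55 (SE 1.24, adjusted p = 1.71e-04). KIF2B, a microtubule-depolymerising kinesin, stood at 900, 802 and 605 CPM in sperm and had no count in any liver, so that sperm was at least 18100-fold higher against a floor of 3 counts over the group (adjusted p = 3.10e-05). For both genes every sperm library lies far above every liver, but groups that do not overlap were a condition for being named here. KIF2B also entered the filter through sperm alone.

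TSSK6L2, RefSeq's TSSK6 and a testis kinase needed for chromatin condensation in mouse sperm, stood at 463, 400 and 264 CPM in sperm and at 0 in liver (at least 8850-fold higher, adjusted p = 3.95e-05). KLHL10, a testis adaptor of ubiquitin ligases that mouse spermatids need to mature, was the most even, at 557, 548 and 543 CPM in sperm against 0.39, 0.51 and 0 in liver (log2 10.82, SE 0.87, adjusted p = 7.44e-05). CZH9orf24, annotated as a spermatid manchette protein, stood at 366, 385 and 258 CPM in sperm with no liver count (at least 7910-fold higher, adjusted p = 3.35e-05). DNAJB8, a heat shock co-chaperone of the testis in human, reached 580, 555 and 339 CPM with no liver count (at least 11600-fold higher, adjusted p = 3.93e-05). All of these are at or next to 0 in the 3 livers. Those with no liver count entered the filter through sperm alone. All of them were named from among called genes, so none of their p values is separate support.

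Other leaders include the alpha tubulin gene TUBA8B, at 984 ± 182 CPM in sperm (SD, n = 3) and 0.48 ± 0.832 in liver, and ERICH3, a glutamate-rich protein of cilia, at 2334 ± 730 and 4.92 ± 0.906 CPM. CEP41, a centrosomal protein tied to tubulin modification in human cilia, had 703 ± 165 and 0.415 ± 0.275 CPM. Called log2 differences were 11.16, 8.88 and 10.67 for the 3 genes. Leaders were picked by how far they stand above liver, and CEP41 after its values were seen, so these calls too are no separate support. Outside the naming rule, and picked after values were seen, 2 histone genes also marked sperm. H2AFB2, annotated as a sperm-like histone H2A, stood at 1310, 1463 and 800 CPM in sperm and 0 in every liver, and 44G24.1, annotated as a histone H2B, at 336, 523 and 240 CPM against 0, 0.294 and 0.079. Of 47 tested histone genes 18 were higher in sperm and 0 higher in liver, beside 29.9% and 22.9% over all tested genes. Their median log2 was 0.96, and that of all tested genes 0.10.

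Flagellar genes were higher in sperm nearly throughout. Of 76 matched genes for the structure of the flagellum 50 passed the filter, 46 were higher in sperm and 1 higher in liver, with a median log2 of 6.54 beside 0.10 for all tested genes. Of these 50, 38 reached the FPKM minimum in all sperm libraries and no liver, so the filter had admitted them through sperm. Among the 5 that reached it in all 6 libraries, 4 were higher in sperm. TEKT3, a tektin filament protein of the axoneme, stood at 121, 141 and 83.2 CPM in sperm and 0 in liver (at least 2700-fold higher, adjusted p = 4.40e-05). CFAP77, which lines axonemal microtubules, stood at 70.8, 108 and 44.5 CPM and also had no liver count (at least 1750-fold higher, adjusted p = 1.10e-04). TPPP2, a tubulin polymerisation protein needed for sperm movement in mouse, stood at 636, 536 and 652 CPM in sperm and at 5.82, 13.1 and 14.2 in liver (log2 5.78, SE 0.43). The exception, STOML3, a membrane protein known from sensory neurons in mouse, had no sperm count and 9.14, 5.18 and 4.3 CPM in liver.

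The motors that bend the flagellum went the same way. Of 30 matched axonemal dynein and dynein assembly genes 16 passed the filter, of which 14 were higher in sperm and 0 higher in liver (median log2 4.28). The filter admitted 7 of the 16 through sperm alone, and all 4 that reached the minimum in all 6 libraries were higher in sperm. The dynein intermediate chain DNAI2 stood at 73.1, 118 and 57.3 CPM in sperm and at 0.22, 0.55 and 0.47 in liver (log2 7.58, SE 0.49, adjusted p = 3.73e-05). PIH1D3, which helps to preassemble dynein arms, stood at 34.9, 52.8 and 16 CPM in sperm and at most 0.66 in liver (log2 6.76, SE 0.98). The summed CPM of the dynein list was 535, 827 and 481 in sperm and 44.9 to 64.8 in liver. The remaining 14 matched members, the heavy chains DNAH5 and DNAH9 among them, did not reach the filter.

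Acrosome and egg activation genes were close to absent from liver. Of 17 matched genes 9 passed the filter and 8 were higher in sperm, with a median log2 of 11.06, or 8.37 with genes at 0 in liver set to their bound. All 8 entered the filter through sperm alone and 0 members reached the minimum in all 6 libraries, so these numbers follow from the filter and only describe the list. ACR, the acrosin protease itself, stood at 221, 338 and 136 CPM in sperm and 0 in liver (at least 5440-fold higher, adjusted p = 8.41e-05). ACRL, a neighbouring gene also annotated as acrosin, stood at 308, 380 and 175 CPM against 0. As these are near copies, how reads were split between them is uncertain. PLCZ1, the phospholipase that starts calcium waves in the mouse egg, stood at 115, 116 and 268 CPM in sperm and 0 in liver (at least 3910-fold higher, adjusted p = 1.13e-04). Sperm library 3, low for ACR, was the high one for PLCZ1. PLCZ1 was picked after its values were seen.

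**Figure D3:**
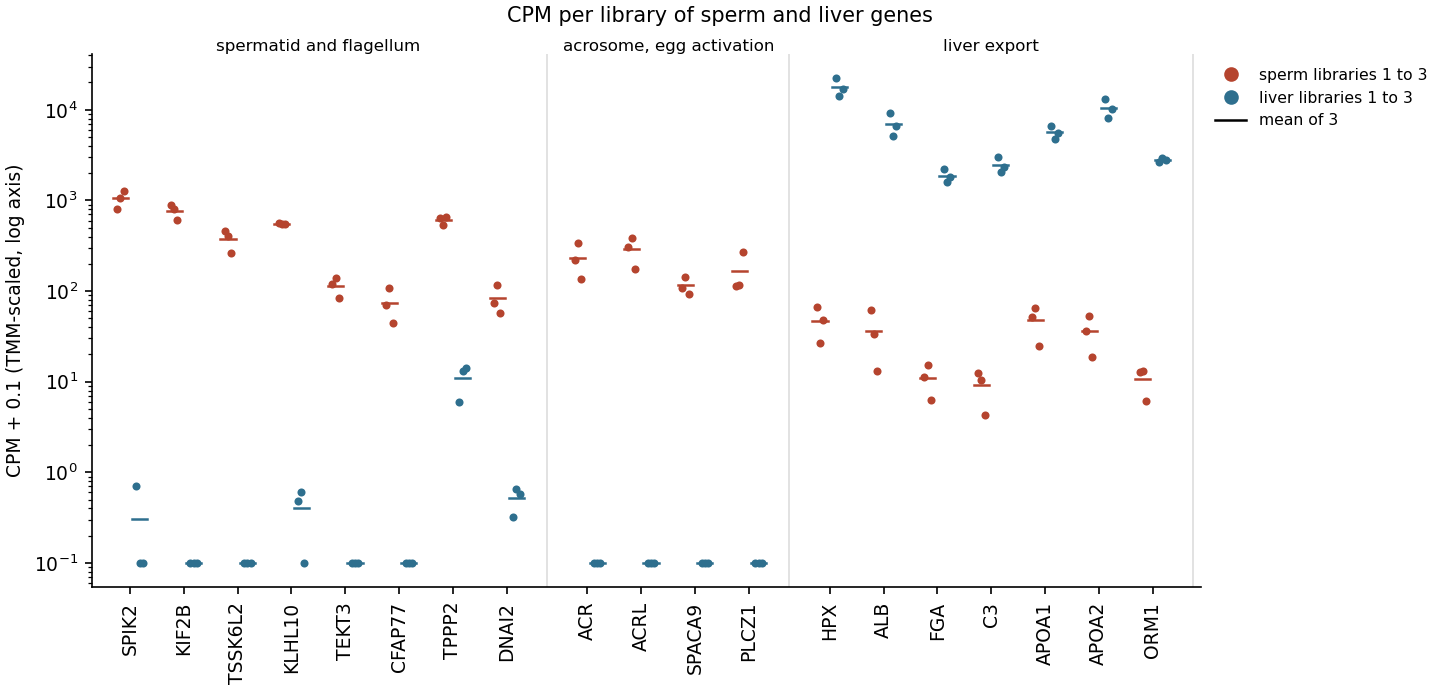
CPM + 0.1 of named genes in each library (y axis, log scale; points are libraries, bars the mean of 3, red sperm, blue liver). Spermatid, flagellar and acrosome genes lie at 44.5 CPM or more in every sperm library and at 14.2 CPM or less in every liver, and the exported liver proteins lie at 1611 CPM or more in every liver and at 66.9 CPM or less in every sperm library.

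Genes of spermatid differentiation were more mixed. Of 41 tested 30 were higher in sperm and 2 higher in liver (median log2 2.94). The filter admitted 20 of the 41 through sperm alone. Of all 4411 genes that reached the minimum in all 6 libraries, 1466 were higher in sperm and 723 in liver. Of the 11 list members among them, 4 were higher in sperm and 2 in liver. The 2 were the intraflagellar transport gene IFT20 (10.8 ± 3.57 CPM in sperm, 23.4 ± 5.93 in liver, adjusted p = 0.033) and CREM, a transcription factor of round spermatids in mouse (26.2 ± 1.95 and 60.8 ± 33.8 CPM, adjusted p = 0.0436). Both calls are lost by limma on FPKM. That of IFT20 is lost without liver library 1 or 3 (adjusted p = 0.0623 and 0.131), and that of CREM, whose values overlap between the tissues, without any 1 library but liver library 1 (0.0738 to 0.17) and with a replicate block (0.0893). Among 15 tested ion channel and cyclic AMP signalling genes of sperm, 6 were higher in sperm and 3 in liver (5 in liver without sperm library 3). These are 40% and 20%, beside 29.9% and 22.9% over all tested genes. Their median log2 of 0.09 turns to -0.09 with upper quartile scaling. CABYR, a calcium-binding protein of the fibrous sheath, stood at 278, 278 and 210 CPM in sperm and at most 0.99 in liver (log2 9.06, SE 0.98). PRKACA, a catalytic subunit of protein kinase A, was the other way, at 3.97, 3.22 and 3.54 CPM in sperm and 336, 201 and 245 in liver (log2 -6.18, SE 0.33). Of 21 matched piRNA pathway genes only 4 passed the filter, and the helicase DDX25 and GPAT2 were higher in sperm (log2 4.54 and 3.70).

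A handful of poorly annotated transcripts filled much of the sperm libraries. LOC112530621, an uncharacterised gene placed on chromosome Z, took 43.2%, 8.12% and 34.8% of all counts in sperm libraries 1, 2 and 3 and at most 0.000701% in a liver (log2 16.11, SE 1.01). LOC112532874, also uncharacterised, stood at 21000, 8756 and 12340 CPM in sperm with no count in liver (at least 330000-fold higher). The 13 genes with a retroviral description in the table together took 10.0%, 19.3% and 3.64% of sperm counts and at most 0.0085% of liver counts. Of 7 tested ones, 6 were higher in sperm and 0 higher in liver, beside 29.9% and 22.9% over all tested genes. The summed FPKM of all 13 in a liver was 10.7 to 19.8. As the filter can admit such genes through sperm alone, this count only describes them. LOC107053122, annotated as the Gag protein of an endogenous retrovirus, stood at 66580, 146000 and 16110 CPM in sperm and at 3.6, 4.52 and 2.73 in liver (log2 14.36, SE 1.23). LOC107052568, with a like annotation, stood at 20910, 148900 and 4110 CPM in sperm and at most 2.49 in liver. Such genes have near copies, so how reads were assigned among them is uncertain. Library 2, highest for them, is also the sperm library with 50.2% rRNA, and the part of rRNA content in their spread was not tested.

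Some defensin transcripts were abundant in sperm too. AvBD10, an antimicrobial avian beta-defensin, had an FPKM of 11790, 4336 and 35350 in sperm and 576, 584 and 833 in liver (log2 of CPM 4.76, SE 0.52, adjusted p = 2.47e-04). AvBD9 was high in both tissues, with an FPKM of 7157, 7141 and 24850 in sperm and 3949, 7413 and 8207 in liver, and these overlap. Its edgeR call (log2 1.29, adjusted p = 0.0178) is lost by limma on log2(FPKM + 1), where adjusted p = 0.414, and without liver library 1, 2 or 3 (0.0672, 0.0606 and 0.0788). Of 7 tested AvBD genes 4 were higher in sperm and 2 higher in liver, beside 29.9% and 22.9% over all tested genes.

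Of the 12 genes chosen by the same rule as furthest above sperm in liver, 8 are mitochondrial tRNAs and the other 4 are the secreted proteins APOA4, HPX, APOA2 and PIT54. Of 25 tested plasma carrier and protease inhibitor genes 24 were higher in liver and 0 higher in sperm (median log2 -7.31). The filter admitted 12 through liver alone, and of the 12 that reached the minimum in all 6 libraries 11 were higher in liver. HPX, the haem carrier hemopexin, stood at 22410, 14020 and 16980 CPM in liver and at 66.9, 26.3 and 47.3 in sperm (log2 -8.57, SE 0.59, adjusted p = 4.23e-05). ALB, albumin, stood at 9154, 5201 and 6578 CPM in liver and at 61.7, 33.5 and 13.1 in sperm (log2 -7.60, SE 0.72). PIT54, the haemoglobin-binding protein that birds use, had 5281 ± 699 CPM in liver and 17.6 ± 7.16 in sperm. The groups do not overlap for any of the 3, which was a condition for naming HPX and PIT54, yet sperm is not at 0 for any of them.

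The same held for the other secreted systems. All 16 tested clotting and fibrinolysis genes were higher in liver (median log2 -6.17), among them the fibrinogen chains FGA, FGB and FGG at 1879, 1682 and 1275 CPM on average in liver and 10.1 to 15.8 in sperm. Of 16 tested complement genes 15 were higher in liver and 0 in sperm. The filter admitted 7 of the clotting and 11 of the complement genes through liver alone, and the 5 and 3 that reached the minimum in all 6 libraries were all higher in liver. C3, the hub of complement, stood at 3012, 2066 and 2364 CPM in liver and at 12.3, 10.5 and 4.25 in sperm (log2 -8.11, SE 0.56). Of 11 tested apolipoprotein and lipoprotein assembly genes 9 were higher in liver, as were all 5 that reached the minimum in all 6 libraries. APOA4, carried on intestinal and liver lipoproteins, stood at 6623, 1840 and 3463 CPM in liver and 8.43, 12.7 and 3.16 in sperm (log2 -8.95, SE 0.85), and APOA1, the main protein of high-density lipoprotein, at 6704, 4802 and 5614 against 52.2, 64.9 and 24.8. Liver library 1 was the high one for HPX, ALB, C3, APOA4 and APOA1, and it is the library with the most rRNA. The part of rRNA content in that was not tested. The exception, PLTP, which moves phospholipid between lipoproteins, was low in both tissues (4.75 ± 0.858 CPM in sperm, 1.78 ± 0.652 in liver), and its call (adjusted p = 0.0449) is lost with upper quartile scaling (adjusted p = 0.0727), with a replicate block (0.108) and without liver library 1, 2 or 3 or sperm library 1 or 3 (0.0633 to 0.141).

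Metabolic enzymes of the hepatocyte followed. Amino acid breakdown and uric acid genes were higher in liver for 35 of 43 tested and higher in sperm for 5 (2 by limma on log2(FPKM + 1)). HPD, of tyrosine breakdown, stood at 2408, 2189 and 2323 CPM in liver and 14, 17.7 and 8.08 in sperm (log2 -7.45, SE 0.43). PPAT, which opens the purine route that birds use to make uric acid, had 342 ± 55.4 CPM in liver and 3.6 ± 0.344 in sperm. Of the reverse cases, DAO, an oxidase of D-amino acids, stood at 420, 232 and 252 CPM in sperm against 18.4, 20.1 and 20.7 in liver (log2 3.93, SE 0.32), and ASS1, of arginine synthesis, at 110 ± 40.8 against 15.5 ± 3.22. Bile acid genes were higher in liver for 11 of 13, cytochrome P450 and conjugation genes for 20 of 27. The filter admitted 11 of the amino acid, 4 of the bile acid and 8 of the P450 and conjugation genes through liver alone. Of those that reached the minimum in all 6 libraries, 15 of 22, 3 of 3 and 7 of 11 were higher in liver. Among the 22 amino acid genes 5 were higher in sperm. The xenobiotic receptor NR1I3 had 107 ± 4.44 CPM in liver and 0.372 ± 0.323 in sperm. All 22 mitochondrial tRNA genes were higher in liver (median log2 -8.26). Their level varied with the libraries. The tagged mitochondrial genes took 6.30% to 8.28% of counts in these livers but 0.677% to 0.932% in the livers labelled FCON. In sperm libraries 1, 2 and 3 they took 0.0534%, 0.470% and 0.0742%. The part of library make-up in this difference was not tested. Of 13 listed mitochondrially encoded protein genes 0 matched the table, so none could be analysed here.

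**Figure D4:**
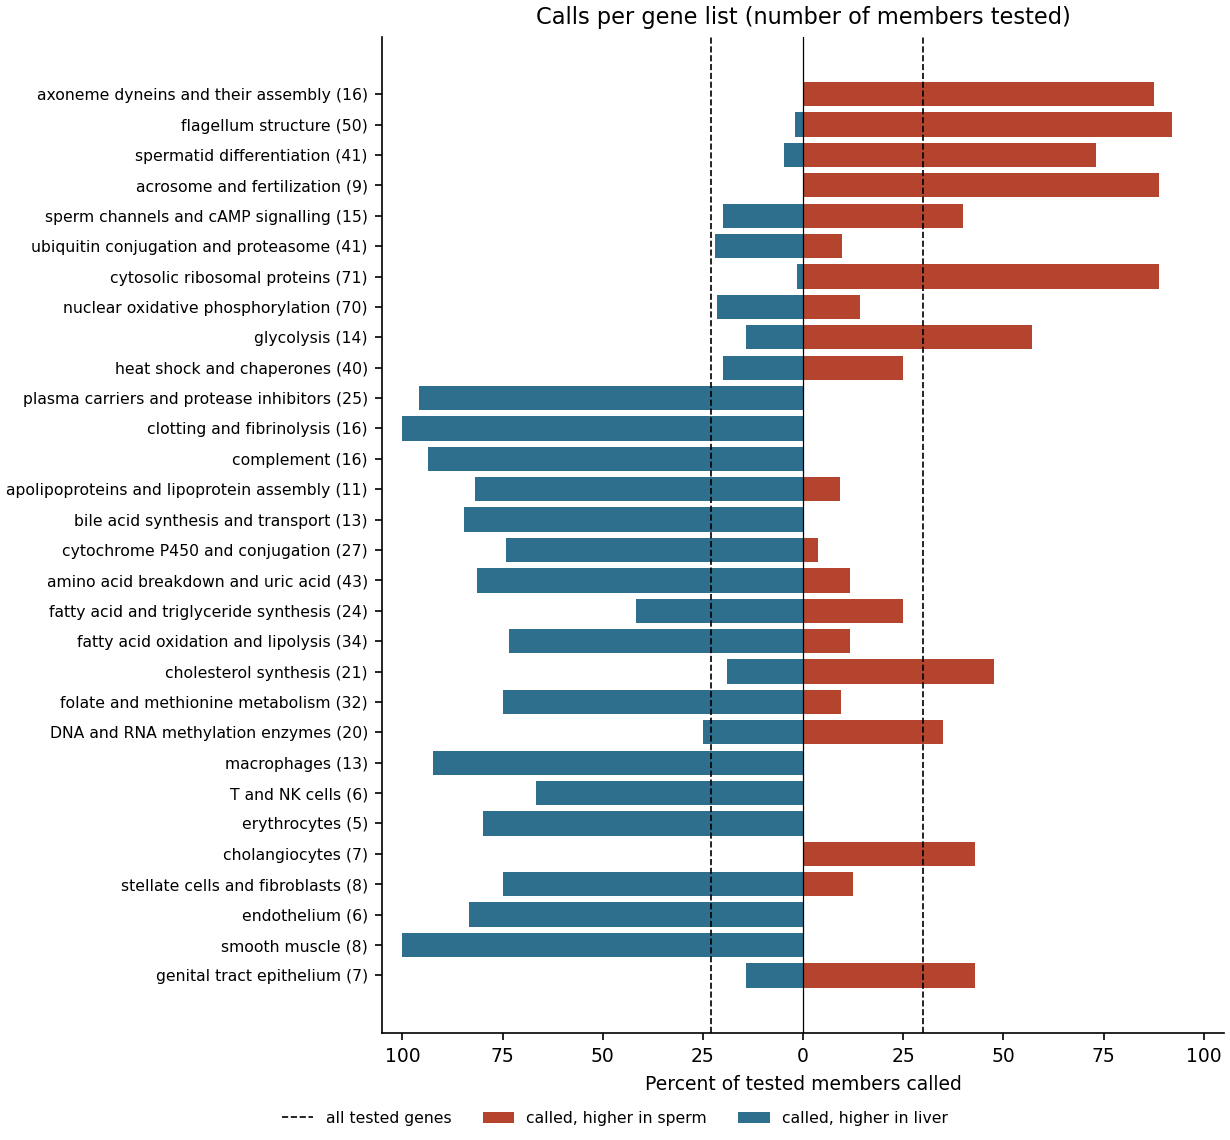
Percent of tested members called higher in sperm (red, right) or higher in liver (blue, left) for each gene list with at least 5 tested members, whose number is in brackets; dashed lines mark 29.9% and 22.9%, the shares over all tested genes. Flagellum, dynein, acrosome and ribosomal protein lists extend to the right, and the secreted protein, amino acid, folate and vessel lists to the left.

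Machinery that every cell uses split by kind. Of 71 tested cytosolic ribosomal protein genes, all with the FPKM minimum in all 6 libraries, 63 were higher in sperm and 1 higher in liver (median log2 1.38). By limma on log2(FPKM + 1) the count is 12, with a median of 0.93. RPS28 stood at 1748, 1341 and 1393 CPM in sperm and 125, 104 and 144 in liver (log2 3.59, SE 0.28, adjusted p = 6.65e-05), and RPLP1, of the ribosomal stalk, at 3734, 3600 and 2923 against 747, 585 and 656. The exception is RPS27L, a paralogue of RPS27, at 18.1, 22.8 and 13.9 CPM in sperm and 77.2, 78.4 and 82.3 in liver (log2 -2.12, SE 0.26). Retrocopies of ribosomal protein genes can share their reads.

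Nuclear genes of oxidative phosphorylation, in contrast, were near balance. Of 70 tested 10 were higher in sperm (14.3%) and 15 higher in liver (21.4%), with a median log2 of -0.07. Over all tested genes the shares were 29.9% and 22.9%. Without sperm library 2 the count higher in liver is 26, without liver library 2 or 3 it is 9, and by limma on log2(FPKM + 1) 0 are higher in sperm and 8 in liver. The count higher in sperm is 5 without liver library 3 and 6 without liver library 2 or sperm library 2. All 70 genes reached the FPKM minimum in all 6 libraries. Of all 4411 genes that did so, 1466 were higher in sperm and 723 in liver, a closer reference than all tested genes. NDUFV2, a complex I subunit, stood at 14.6, 13.8 and 17.5 CPM in sperm and 53.8, 64.4 and 62.4 in liver (log2 -1.98, SE 0.23), while COX6C, of complex IV, stood at 177 ± 54.3 CPM in sperm and 65.1 ± 9.65 in liver (mean ± SD, n = 3 each; log2 1.44, SE 0.28, not called by limma on log2(FPKM + 1), where adjusted p = 0.252). Among 41 ubiquitin and proteasome genes 4 were higher in sperm (9.76%) and 9 in liver (22.0%), beside 29.9% and 22.9% over all tested genes. The count in liver is 3 without liver library 2, 2 without liver library 3 and 4 without sperm library 1, and the count in sperm is 2 without any 1 of the livers or sperm library 2. By limma on log2(FPKM + 1) the counts are 0 and 3. Of the 39 that reached the minimum in all 6 libraries, 4 were higher in sperm and 8 in liver. Of 40 chaperone genes 10 were higher in sperm (25%) and 8 in liver (20%), near the shares over all tested genes. By limma on log2(FPKM + 1) the counts are 2 and 6. Of the 32 chaperone genes that reached the minimum in all 6 libraries, 8 were higher in sperm and 7 in liver. The mitochondrial chaperone HSPD1 stood at 10.2, 3.59 and 17.4 CPM in sperm and 139, 137 and 134 in liver (log2 -3.70, SE 0.53). CCT7, a subunit of the cytosolic tubulin-folding ring, stood at 125, 209 and 109 against 29.3, 19.4 and 18.8 (log2 2.71, SE 0.35), and the heat shock regulator HSF1 at 67.3 ± 8.95 against 4.88 ± 0.687. The ring was split. Of its other subunits CCT3 was higher in sperm and TCP1 in liver, and CCT2, CCT4, CCT5, CCT6A and CCT8 were not called.

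Of 14 tested glycolysis genes 8 were higher in sperm and 2 in liver (4 and 1 by limma on log2(FPKM + 1), 5 in sperm without liver library 3, and 1 in liver without liver library 2 or 3 or sperm library 1). ALDOC, an aldolase, stood at 280, 213 and 440 CPM in sperm and 21.3, 21.8 and 20.9 in liver (log2 3.87, SE 0.33). HK3, a hexokinase, is not on the list and was picked after its values were seen. It stood at 1567, 1982 and 1177 CPM in sperm and 5.15, 4.89 and 3.99 in liver (log2 8.40, SE 0.38). HK2 was 4.6-fold and PFKP, the platelet-type phosphofructokinase, 16.2-fold higher in sperm, while PFKL, the liver type, was lower there (11.9 ± 3.24 against 22.8 ± 1.22 CPM, adjusted p = 0.0287). The PFKL call is lost by limma on log2(FPKM + 1) (adjusted p = 0.0841), with a replicate block (0.0537) and without liver library 2 or 3 or sperm library 1 (0.0879, 0.0877 and 0.0535). The pyruvate kinase listed as PKM, and as PKLR in RefSeq, stood at 570, 651 and 543 CPM in sperm and 20.3, 23.3 and 19.4 in liver. PGK1, which RefSeq lists as PGK2, overlapped between the tissues (88 ± 37.9 and 90.8 ± 8.37 CPM, adjusted p = 0.917).

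A trio of creatine genes, brought together after their values were seen and not a list of their own, was higher in sperm, while CKMT1A did not pass the filter. Creatine phosphate carries energy along the sperm tail in several animals. The brain-type creatine kinase CKB stood at 526, 1162 and 290 CPM in sperm and 6.37, 9.3 and 5.73 in liver (log2 6.53, SE 0.62, adjusted p = 1.42e-04). SLC6A8, the creatine transporter, stood at 3084, 1313 and 2846 CPM against 11.2, 6.77 and 9.56 (log2 8.04, SE 0.52). CKMT2, a mitochondrial creatine kinase, stood at 158, 133 and 89.6 CPM in sperm and 0 in liver (at least 2990-fold higher). Sperm library 2 was the high one for CKB and the low one for SLC6A8.

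The study's title concerns lipid metabolism. Of 34 tested fatty acid oxidation and lipolysis genes 25 were higher in liver (73.5%) and 4 in sperm (11.8%). The shares over all tested genes were 22.9% in liver and 29.9% in sperm. Among the 21 that reached the FPKM minimum in all 6 libraries, 17 were higher in liver and 2 in sperm. CPT1A, the gate of mitochondrial fatty acid entry, stood at 104, 53.5 and 53.1 CPM in liver and 4.68, 0.95 and 4.01 in sperm (log2 -4.42, SE 0.61). Of 24 synthesis genes 10 were higher in liver (41.7%) and 6 in sperm (25%). Of the 13 that reached the minimum in all 6 libraries, 3 were higher in liver and 3 in sperm. FASN, fatty acid synthase, stood at 127 ± 22.8 CPM in liver and 37.8 ± 7.23 in sperm (mean ± SD, n = 3 each; log2 -1.75, SE 0.26), whereas ACACA, which makes its malonyl-CoA, overlapped (log2 -0.10, adjusted p = 0.783).

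Single lipid genes were higher in sperm, although the shares of both lists, 11.8% and 25%, lie below the 29.9% over all tested genes. ACACB, the mitochondrial acetyl-CoA carboxylase, stood at 161, 220 and 129 CPM in sperm and 1.39, 1.4 and 1.66 in liver (log2 6.83, SE 0.34, adjusted p = 2.93e-05). DGAT2, the last step to triglyceride, stood at 101, 26.8 and 43.5 against 2.33, 1.03 and 3.16, and the lipogenic regulator SREBF1 at 77, 58.5 and 65.1 against 2.77, 5.18 and 6.87 (log2 3.75, SE 0.38). The fatty acid carriers FABP7 (370 ± 126 CPM) and FABP3 (18.2 ± 6.89 CPM) marked sperm and had 6.83 ± 2.51 and 0.147 ± 0.255 CPM in liver. SCD, the desaturase of stearate, overlapped (18.5, 9 and 11.9 CPM in sperm, 12, 3.05 and 5.05 in liver, adjusted p = 0.169, and 0.0343 without liver library 1). The lipase PNPLA2 was higher in liver (66.6 ± 1.70 against 27.6 ± 11 CPM, adjusted p = 0.0126), a call lost by limma on log2(FPKM + 0.1) (0.0656).

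Of 21 tested cholesterol synthesis genes 10 were higher in sperm (47.6%) and 4 in liver (19%), beside 29.9% and 22.9% over all tested genes. By limma on log2(FPKM + 1) these counts are 3 and 4. They are 6 in sperm without liver library 1 or 3, and 2 in liver without liver library 2 or 3. FDFT1, squalene synthase, stood at 91.4, 79.9 and 85.6 CPM in sperm and 5.93, 6.1 and 7.62 in liver (log2 3.71, SE 0.24, adjusted p = 3.90e-05). FDFT1 was picked after its values were seen. The sterol-forming cyclase LSS had 53.6 ± 21.5 and 13.2 ± 1.85 CPM, and the demethylase CYP51A1 21.1 ± 5.69 and 5.76 ± 0.852. Neither is called by limma on log2(FPKM + 1) (adjusted p = 0.0701 and 0.0983). HMGCS1, an early step of the pathway, stood at 4.94, 13 and 18.2 CPM in sperm and 863, 1330 and 1107 in liver (log2 -6.51, SE 0.57).

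**Figure D5:**
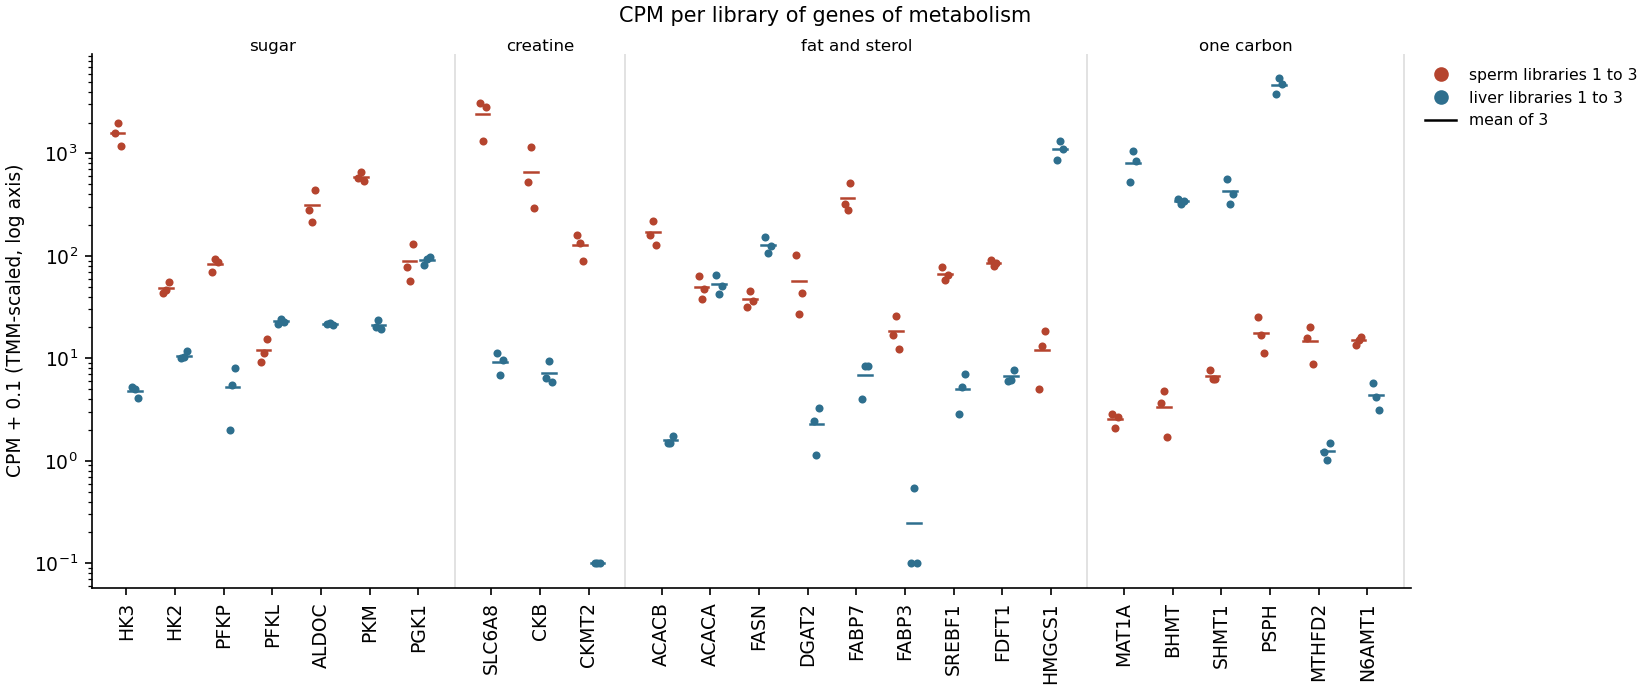
CPM + 0.1 of genes of sugar, creatine, fat, sterol and one-carbon metabolism in each library (y axis, log scale; points are libraries, bars the mean of 3, red sperm, blue liver). HMGCS1 and FDFT1, and FASN and ACACB, lie on opposite sides, and PGK1 and ACACA overlap.

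Folate and methionine genes, the pathway the diet feeds, were mainly liver genes. Of 32 tested 24 were higher in liver and 3 higher in sperm (24 and 1 by limma on log2(FPKM + 1), median log2 -2.92). Among the 18 that reached the FPKM minimum in all 6 libraries, 14 were higher in liver and 1 in sperm. MAT1A, the liver enzyme for S-adenosylmethionine, stood at 528, 1060 and 843 CPM in liver and 2.74, 1.98 and 2.6 in sperm (log2 -8.37, SE 0.43, adjusted p = 2.93e-05). The serine synthesis genes PHGDH, PSAT1 and PSPH had 831 ± 17.3, 838 ± 5.17 and 4648 ± 846 CPM in liver and 8.55 ± 1.96, 7.6 ± 3.39 and 17.6 ± 6.89 in sperm. BHMT, listed as BHMT2 in RefSeq, which remethylates homocysteine from betaine, stood at 355, 323 and 340 CPM in liver and 3.53, 4.68 and 1.59 in sperm, and SHMT1, which links serine to folate, at 563, 323 and 402 against 7.64, 6.15 and 6.23. Methionine synthase, MTR, the step that joins the folate and methionine cycles, differed less (14.1 ± 0.942 CPM in liver, 3.33 ± 1.05 in sperm, adjusted p = 0.00224). In the other direction, the mitochondrial folate enzyme MTHFD2 stood at 15.8, 19.9 and 8.79 CPM in sperm and 1.11, 0.92 and 1.38 in liver (log2 3.70, SE 0.46), and TYMS, thymidylate synthase, at 5.45 ± 2.64 against 1.3 ± 0.335. The TYMS call is lost by limma on log2(FPKM + 1) (adjusted p = 0.0843), with a replicate block (0.0663) and without liver library 1 or 3 (0.0503 and 0.0682).

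Enzymes that write or read methyl marks showed no common direction. Of 20 tested 7 were higher in sperm (35%) and 5 in liver (25%), beside 29.9% and 22.9% over all tested genes. The counts are 2 and 5 by limma on log2(FPKM + 1), and 3 in liver without liver library 2. The median log2 of 0.03 turns to -0.04 with RLE scaling and -0.23 by limma. The title of the study concerns adenine methylation of sperm DNA. N6AMT1, a methyltransferase with a debated part in that mark, stood at 13.5, 15.1 and 16 CPM in sperm and 5.65, 4.12 and 3.04 in liver (log2 1.80, SE 0.35, adjusted p = 0.00348), and the call is lost by limma on log2(FPKM + 1) (adjusted p = 0.0607). ALKBH1, put forward as an eraser of it, overlapped (7.21 ± 2.01 and 6 ± 1.08 CPM, adjusted p = 0.595), and METTL4 did not pass the filter (1.17 ± 0.75 and 1.5 ± 0.755 CPM). The RNA adenine writer METTL3, listed as LOC107050363, stood at 78, 129 and 80.1 CPM in sperm and 39.7, 23.5 and 27.1 in liver (log2 1.67, SE 0.32), and this call too is lost by limma (adjusted p = 0.0785). Its partner METTL14 overlapped (adjusted p = 0.497). The DNA cytosine methyltransferases DNMT1 and DNMT3A overlapped too (adjusted p = 0.459 and 0.704), and DNMT3B and FTO did not pass the filter. TET3, which oxidises methylcytosine, stood at 6.05, 7.54 and 3.81 CPM in sperm and 24, 16.3 and 17.9 in liver (log2 -1.75, SE 0.37).

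The labels were checked against markers of other cells. Macrophage genes were higher in liver for 12 of 13 tested, with a summed CPM of 769 to 845 in liver and 47.9 to 85.1 in sperm. MARCO, a macrophage scavenger receptor, stood at 69.4, 67 and 64.8 CPM in liver and 0 in sperm. Endothelial genes (5 of 6, summed CPM 118 to 127 in liver and 5.85 to 17.5 in sperm), smooth muscle genes (8 of 8, 269 to 346 and 11.3 to 21.1) and erythrocyte genes (4 of 5, 220 to 609 and 4.6 to 20.2) were higher in liver as well. CDH5, which defines endothelium, had no sperm count. Lymphocyte markers were less one-sided. T and NK cell genes (4 of 6 higher in liver) summed to 127, 342 and 122 CPM in sperm and 250 to 314 in liver. B and plasma cell genes (1 of 4) summed to 63, 10.2 and 101 CPM in sperm and 74.8 to 78.6 in liver. Sperm library 2 lay above every liver for the former and sperm library 3 for the latter. The filter admitted 5 of the 6 endothelial, 5 of the 8 smooth muscle, 6 of the 13 macrophage and 3 of the 6 T and NK cell genes through liver alone, so the counts describe these lists and support nothing. The summed levels show marker transcripts of vessel and blood cells in the livers, and their part in the liver-high genes was not tested.

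Some markers of the male tract and of bile duct were higher in sperm. PAX2, a regulator of the epididymis and other Wolffian ducts in mouse, stood at 85.4, 44.6 and 85.5 CPM in sperm and 0 in liver. Of 7 tested genital tract genes 3 were higher in sperm (42.9%) and 1, the keratin KRT18, in liver (14.3%). All tested genes had 29.9% and 22.9%. The sums of these markers were 313 to 769 CPM in sperm and 522 to 677 in liver. KRT19, an epithelial keratin that RefSeq lists as KRT24, stood at 190, 140 and 302 CPM in sperm and 15, 10.8 and 8.96 in liver (log2 4.19, SE 0.39). KRT19 and KRT7 are among the 3 of 7 bile duct markers higher in sperm (42.9%, beside 29.9% over all tested genes). By limma on log2(FPKM + 1) the count is 1, without KRT7 (adjusted p = 0.0608). The sum of the bile duct markers was 243 to 580 CPM in sperm and 116 to 132 in liver. Of 8 tested stellate cell and fibroblast genes 6 were higher in liver and 1 in sperm (median log2 -3.01, with 5 admitted through liver alone). The 1 was VIM, a filament protein, with 136 ± 69.7 CPM in sperm and 19.8 ± 6.51 in liver, while the collagen gene COL1A1 had 4.96 ± 1.29 and 43.0 ± 1.60. Sperm library 2 was lowest for PAX2, KRT19 and VIM. Heterophil markers (3 tested of 12 matched, 1 higher in sperm, sums of 18 to 43.2 and 7.76 to 14.9 CPM) hung on S100A9, annotated as MRP-126. Spermatogonia and spermatocyte markers were at 19 to 62.4 CPM in sperm and 19.1 to 39.3 in liver, and markers of somatic testis cells at 30.4 to 71 and 20.6 to 31.1. Of 16 matched genes of the former 3 were tested, with 2 higher in sperm and 0 in liver. Of 13 of the latter 4 were tested, with 1 and 0. Leaving out 1 library gave 1 to 2 and 0 to 1 higher in sperm. All tested genes had 29.9% in sperm and 22.9% in liver. The part of any such cells in the sperm-high genes was not tested.

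The FE comparison was set against the same tissues under FCON by testing the difference of the 2 tissue differences over 12 libraries. One caution comes first. The libraries labelled liver FCON held 1015 to 1117 CPM (of the plain library total) of W chromosome genes, which hens carry, and those labelled liver FE 0 to 2.07. Nuclear rRNA took 3.02% to 8.75% of the former and 32.8% to 60.5% of the latter. Sperm held 5.02 to 32.6 (FE) and 9.74 to 22.4 (FCON) CPM of W genes. Diet, whatever goes with the W counts and rRNA content cannot be told apart in the liver side of this test.

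Of 11797 genes tested, 350 (2.97%) differed in their tissue difference, 184 with sperm over liver higher under FE and 166 lower. For 306 of the 350 the gap between diets was larger in liver than in sperm, and the median size of the log2 gap was 1.74 in liver and 0.51 in sperm. Of them, 122 had non-overlapping diets in sperm and 342 in liver. The genes were called on these same libraries, and no share over all genes tested was computed. These gaps and counts therefore only describe the called genes. Without any 1 of the FCON livers the count falls to between 81 and 86, and without sperm FCON library 2 it is 1196. Of 25 tested cholesterol synthesis genes 9 were called positive and 0 negative (median 2.30, beside 0.04 over all genes tested). FDFT1 averaged 103 CPM in sperm FE and 95.9 in sperm FCON, but 8.07 in liver FE and 115 in liver FCON (difference of log2 differences 3.94, SE 0.34, adjusted p = 2.52e-04). CYP51A1, FDPS and LSS were called as well (3.50, 3.72 and 2.30). The LSS call is lost without any 1 of the liver libraries or without sperm FE library 1 or 3 (adjusted p = 0.053 to 0.117). SPIK2 (adjusted p = 0.934), ALB (0.854) and HPX (0.155) were not called in this test, which does not show that their tissue difference is the same under both diets.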

How the data were processed

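PolyA RNA of 18 samples was sequenced in paired ends, and the 6 of FE sperm and FE liver form the main comparison. Per gene, the deposited table holds FPKM and estimated counts, all of them whole numbers. cutadapt, HISAT2 and StringTie are named in the submitters' processing notes. Versions, settings, treatment of multiply mapping reads and genome build: not given in the sources used here. FPKM, as deposited, is relative to library totals that include nuclear rRNA (37 genes). Since no source says that libraries kept the strand, reads of a gene and an overlapping antisense gene cannot be told apart. A GRCg7b RefSeq gene table gave symbols and chromosome names for 19402 gene IDs.

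Genes with FPKM of at least 1 in at least 3 libraries of a fit were tested with edgeR 4.0.16 (R 4.3.3) by quasi-likelihood with TMM scaling on the estimated counts, 1 mean per group, Benjamini-Hochberg adjusted over all genes tested, and called below 0.05. This was tested on simulated counts. The difference of tissue differences used 12 libraries. Named genes are the 12 called genes furthest apart in mean log2(FPKM + 1) in each direction, among those whose groups do not overlap, with a symbol that is not a LOC number and outside nuclear rRNA, histone and W chromosome genes, up to 4 and 2 members per list, the 8 highest FPKM in sperm, a panel of 24 lipid and methylation genes of which 18 were tested, and up to 6 genes of the difference test per direction. Others were picked after their values were seen, whether or not a rule also named them. They include HK3, PGK1, PLCZ1, CEP41, PSAT1, FDFT1, FABP7, PAX2, SLC6A8, CKMT2, UHRF1 and HVCN1. Of 1096 symbols in 37 lists 948 matched. Some results for named genes are not reported here. Members and lists were chosen with earlier results of these data known. List counts and medians describe members that passed the filter. Depth was 17.0 to 27.5 M counts per library, and fold bounds from a floor of 3 counts cover counting error only. Alternatives were DESeq2 1.42.0, limma 3.58.1 on log2(FPKM + 1) or log2(FPKM + 0.1), RLE and upper quartile scaling, other filters, a replicate block and leaving out libraries. Any 2 libraries of 1 group differed by more than sampling noise.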

Additional observations from a re-analysis of the deposited data

Results flagged for a closer look

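The results here concern genes whose sperm to liver difference under FE differed from that under FCON, by the test of the difference itself (edgeR, 12 libraries). Values are differences of log2 differences, FE minus FCON, and CPM are group means of 3 libraries. In all of them the libraries labelled liver FCON carry W chromosome counts and little rRNA while those labelled liver FE carry hardly any W counts and much rRNA, and the part of either was not tested.

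Among cholesterol synthesis genes, 9 of 25 tested were called positive and 0 negative, where 2.97% of all genes tested were called. The named ones were CYP51A1 at 3.50 (SE 0.39), FDFT1 at 3.94, FDPS at 3.72 and LSS at 2.30. CYP51A1 had 25.5 and 35.9 CPM in sperm FE and FCON, and 7.09 and 113 CPM in liver FE and FCON. FABP1, the fatty acid carrier of liver, reached 9.71 (SE 0.91), with 332 CPM in liver FCON and 1.69 in liver FE. CYP8B1, of bile acid synthesis, reached 5.32, with 269 and 4.43 CPM in the same groups, and SELENOI, a phospholipid synthesis enzyme, 4.70, with 126 and 5.01. The SELENOI call is lost without any 1 of the FCON livers (adjusted p = 0.0614 to 0.0684) or without liver FE library 3 (0.0658).

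The W genes ATP5A1W, LOC107049046 and HINTW have fitted values of 20.04, 23.53 and 15.47. These rest on groups with 0 or next to 0 counts and are no measure of size. ATP5A1W had 194 CPM in liver FCON and 0 in liver FE. Each of the 3 calls is lost on leaving out liver FCON library 1 or 3 (adjusted p = 0.0502 to 0.0919), and further libraries end the HINTW call, which is also lost with a replicate block (0.0567). Without liver FCON library 2 the calls of HINTW (0.0874) and LOC107049046 (0.058) are lost, and without sperm FE library 1 those of HINTW and ATP5A1W.

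In the negative direction CAMK1D, a calmodulin-dependent kinase, reached -8.17 (SE 0.67), with 750 CPM in liver FE and 8.21 in liver FCON beside 5.76 and 18.4 in sperm. CTSD, a lysosomal protease, reached -5.38, the actin-binding COTL1 -4.88, the hypoxia factor EPAS1 -4.24 and the co-chaperone BAG3 -4.15. EPAS1 had 645 CPM in liver FE and 36.0 in liver FCON. The smooth muscle genes CNN1 and ACTG2 stood at -4.91 and -4.77, 2 of 8 tested. Both calls are lost without any 1 of the 6 liver libraries or sperm FE library 2 (adjusted p = 0.0546 to 0.128), that of CNN1 also without sperm FE library 1 (0.0755) and that of ACTG2 with a replicate block (0.0712). From the lipid panel, SCD reached -3.49 (SE 0.82, adjusted p = 0.0461) and the lipase PNPLA2 -1.79 (SE 0.41, adjusted p = 0.0429). SCD had 15.9 and 28.1 CPM in sperm FE and FCON, and 8.27 and 1.29 in liver. The SCD and PNPLA2 calls are lost without any 1 of the 6 liver libraries (adjusted p = 0.0521 to 0.129), without sperm FCON library 1 or 3 or sperm FE library 1 (0.0517 to 0.0773), and by limma on log2(FPKM + 1) (0.0858 and 0.409). The SCD call is lost as well without sperm FE library 2 or 3 (0.0832 and 0.0562), and the PNPLA2 call with a replicate block (0.0529).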

How the results depend on the processing

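None of the named genes turned its direction in a fit where it was called or had been called in the main test. The median log2 over all genes did turn, from 0.10 to -0.09 with upper quartile scaling, -0.02 without rRNA and mitochondrial genes, and -0.24 and -0.36 by limma with + 1 and + 0.1. The count of 4954 calls stayed within 1.5 times under RLE scaling (5010), upper quartile scaling (5005), DESeq2 (5277), no filter (6110) and without rRNA and mitochondrial genes (4974). Limma on log2(FPKM + 1) called 3837 genes, 1667 of them higher in sperm, and with + 0.1 it called 3508 with 1547 higher in sperm, which is 43.5% and 44.1% of calls in place of 56.6%. Fewer genes enter at a mean FPKM of at least 5 (2755 calls, 1457 in sperm and 1298 in liver) and at FPKM of at least 1 in 5 of 6 libraries (3005, 1609 and 1396). Leaving out 1 library gave 4048 to 5236 calls, 2348 to 2789 higher in sperm and 1682 to 2447 higher in liver.

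The 350 calls of the difference test are far less stable. Leaving out 1 library gave 81 to 1196, 39 to 777 positive and 42 to 425 negative. The count is 85, 86 and 81 without liver FCON 1, 2 and 3, 222, 118 and 117 without liver FE 1, 2 and 3, 547 and 1196 without sperm FCON 1 and 2, and 167 and 750 without sperm FE 1 and 3. Limma on log2(FPKM + 1) gave 1055 (992 positive, 63 negative), 94.0% positive in place of 52.6%, and RLE scaling gave 347, 46.7% positive. The causes were not tested.

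With the replicate number as a block the tissue comparison gave 4429 calls (2490 and 1939) and the difference test 231 (122 and 109). Same-numbered sperm and liver libraries correlated at 0.0533, -0.0804 and 0.0448 after removal of group means. That gives no sign of pairing and does not show whether a number is 1 bird. Over the named genes 3312 values kept their side of the threshold, 124 lost it and 3 gained it. At 3 libraries a group and this depth, small differences of weakly expressed genes are not detectable.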

Other observations

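LOC107052718, picked after its values were seen, had 42500 CPM in sperm library 1, 0 in sperm libraries 2 and 3 and at most 1.55 in liver. It did not pass the filter. SELENOI, BAG3 and FABP1 overlapped or nearly so between sperm and liver under FE although their tissue difference differed between diets. Under FE, FABP1 was not called and BAG3 was called higher in liver. The BAG3 call is lost by limma on log2(FPKM + 1) (adjusted p = 0.0613) and with a replicate block (0.0707). It is also lost without liver library 2 or 3 or any 1 of the sperm libraries (0.0602 to 0.145). UHRF1, a reader of newly replicated DNA that was also picked after values were seen, stood at 6.05, 15.3 and 3.75 CPM in sperm and 1.27, 1.51 and 1.58 in liver (log2 2.51, SE 0.62, adjusted p = 0.0102, and 0.059 without sperm library 2 and liver library 1). HVCN1, the proton channel of the human sperm tail, stood at 3.92 ± 1.27 CPM in sperm and 3.27 ± 0.779 in liver and did not pass the filter.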
